A study of Mus musculus with 2 samples.

Results

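The subject is chromosome 8 of the mouse as seen in both lists of regions enriched for 5-hydroxymethylcytosine (5hmC), called peaks, that the series holds. Every peak on the chromosome was taken, which gave 3789 of 57827 peaks (6.55%) in the list recorded for cells with ascorbic acid (AA, vitamin C) and 4561 of 63834 (7.15%) in the other list. The chromosome was picked because both lists have their highest peak density on it, and its stretch from 19 to 21 Mb was picked for its many tags (aligned reads). Those features are therefore described here without a test. Chromosomes 2 to 7 as a pool, with 20202 and 21893 peaks, served for comparison. Positions refer to mouse build mm9. Without a genome or gene annotation of that build, regions are given here without gene names or sequence.

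5hmC is made from 5-methylcytosine by the Tet dioxygenases, which work with iron and 2-oxoglutarate, and ascorbic acid helps such enzymes keep their iron in its active, reduced form. In embryonic stem (ES) cells the mark is known to lie at distal regulatory elements, in the bodies of many genes and around CpG-poor promoters, so gene-rich stretches tend to carry more of it than gene deserts. Mouse chromosomes have their centromere at the end from which positions are counted. An extra chromosome 8 is a change that mouse ES cells are known to acquire in culture. How many copies these cells carried was not tested.

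Both groups were ES cells of mouse strain 129SvEv. The first was kept with 100 µM AA for 24 h. The label of the second names no incubation, and it was placed in the group without AA from its title together with the design text of the series, which contrasts both conditions. The sources used here do not give the name, clone or passage of the cell line. DNA fragments with 5hmC were tagged with biotin and pulled down, and 1 library was sequenced from each group. In both lists the header carries the name of the other sample. They are called AA-labelled and no-AA-labelled as recorded, and if the headers are right each direction between them is the opposite. No marker gene can check the labelled cell type in a list of 5hmC peaks.

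The AA-labelled library kept 11907082 tags and the no-AA-labelled library 18398162, or 1.55 times as many, after tags were limited to 1 per position. The fragment length estimated by the authors' caller was 229 bp in the first and 165 bp in the second. Each list was called on its own library with no control, so depth, fragment length and label cannot be told apart. With 1 library per group there was no replicate error and no test between groups. Intervals in brackets are 95% intervals that cover counting error only, or for medians the spread over peaks or pairs only. None of the peaks, pairs or windows of a library is a replicate.

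Chromosome 8 held 28.8 peaks per Mb (27.9 to 29.7) in the AA-labelled list and 34.6 (33.6 to 35.6) in the no-AA-labelled list. Chromosomes 2 to 7 held 21.2 and 23.0 peaks per Mb, and the single chromosomes among them ranged from 19.7 to 22.9 and from 20.7 to 24.8. The density of chromosome 8 was thus 1.35 times that of chromosomes 2 to 7 in the AA-labelled list (1.31 to 1.4) and 1.50 times in the other (1.46 to 1.55). Among peaks with a fold enrichment of at least 10 these ratios were 1.14 and 1.22, and among peaks with a p of at most 1e-10 they were 1.46 and 1.77. Peaks covered 3.95% of chromosome 8 in the AA-labelled list and 3.65% in the other, against 2.50% and 2.02% of chromosomes 2 to 7. In tags per Mb and per 1000000 kept tags the chromosome stood at 107.7 and 85.9, which was 1.77 and 2.11 times the level of chromosomes 2 to 7.

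The lists differed more in peak number on chromosome 8 than on chromosomes 2 to 7. On chromosome 8 there were 0.831 AA-labelled peaks (0.795 to 0.868) for each no-AA-labelled one. This ratio was 0.923 (0.905 to 0.941) on chromosomes 2 to 7, where the single chromosomes ranged from 0.903 to 0.949. The first ratio was 0.90 times the second (0.859 to 0.944), or -0.15 on the log2 scale (-0.22 to -0.08). Without the stretch at 19 to 21 Mb this log2 value was -0.15 (-0.22 to -0.08) as well. Among peaks of a fold enrichment of at least 10 it was -0.10, with an interval of -0.29 to 0.10 that includes 0. With a p of at most 1e-10 it was -0.28 (-0.42 to -0.13).

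In windows of 5 Mb the chromosome alternated between peak-rich and peak-poor stretches. The fullest windows in the AA-labelled list were 110 to 115 Mb, with 232 AA-labelled and 234 no-AA-labelled peaks, 125 to 130 Mb with 226 and 247, and 45 to 50 Mb with 222 and 253. In the no-AA-labelled list the window at 70 to 75 Mb was the fullest, with 275 peaks, where the AA-labelled list had 194. The emptiest full windows were 100 to 105 Mb, with 38 and 48 peaks, and 50 to 55 Mb, with 42 and 84. By AA-labelled peaks the next were 55 to 60 Mb with 81, 30 to 35 Mb with 90 and 5 to 10 Mb with 92. Both end windows are partly filled, since the first peak starts at 3074150 and the last ends at 131735969.

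Of the 27 windows, 20 in each list lay above the median window of chromosomes 2 to 7, which held 100 and 112 peaks. Above their upper quartile, at 137 and 144 peaks, were 13 windows of chromosome 8 in the AA-labelled list and 17 in the other. No window passed the fullest of chromosomes 2 to 7, at 244 and 302 peaks. Neighbouring 5-Mb windows of chromosome 8 had a Pearson correlation of -0.18 in summed peak number over 26 neighbour pairs, against 0.25 over 187 pairs on chromosomes 2 to 7. Both values include the partly filled end windows and were not recomputed without them. The value of chromosome 8 rests on few pairs, so it does not establish a regular alternation. All windows come from the same libraries.

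**Figure D1:**
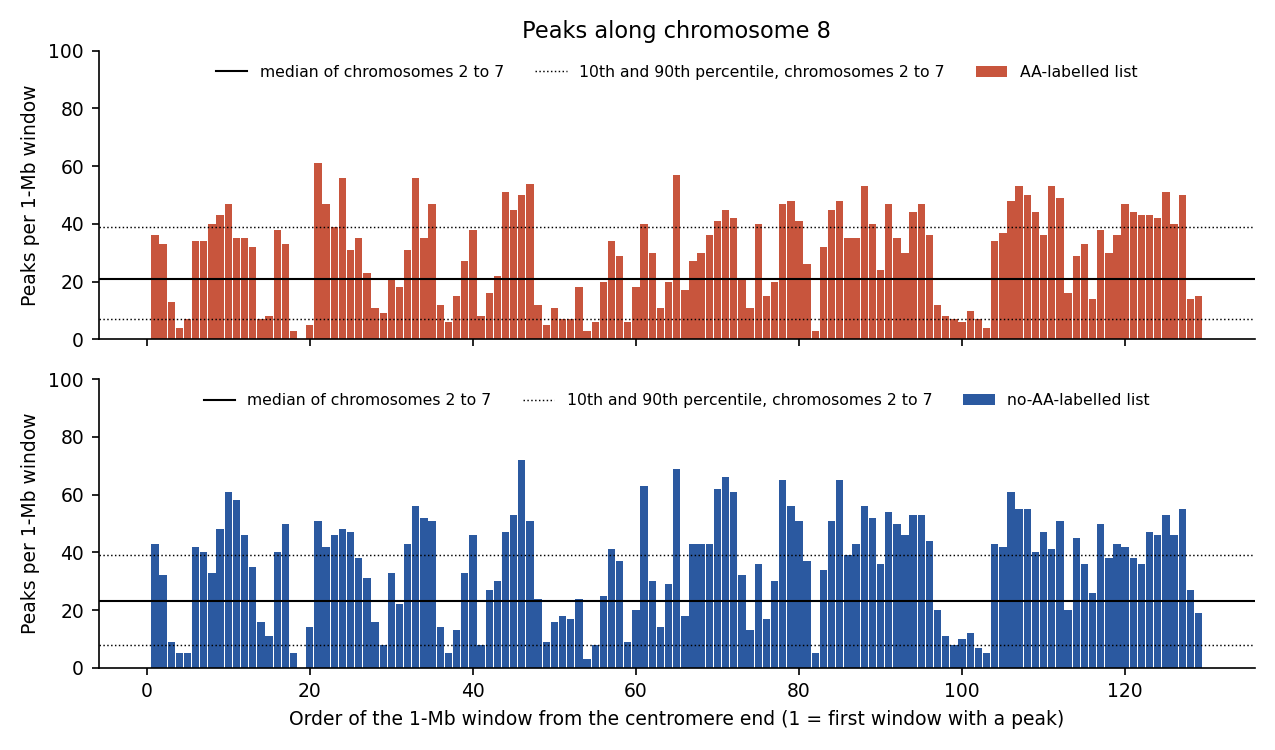
Number of peaks in each 1-Mb window of chromosome 8, in order from the centromere end, for the AA-labelled list (top) and the no-AA-labelled list (bottom). The solid line is the median window of chromosomes 2 to 7 (21 and 23 peaks) and the dotted lines are its 10th and 90th percentiles (7 and 39, 8 and 39), and both lists show the same alternation of rich and poor stretches.

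In windows of 1 Mb the median of chromosome 8 was 33 AA-labelled and 39 no-AA-labelled peaks over 129 windows, against 21 and 23 over the 936 windows of chromosomes 2 to 7. At the low end the values lay close together. The 10th percentile was 7 and 8.8 peaks on chromosome 8 and 7 and 8 on the others. At the high end the 90th percentile was 49.2 and 56 on chromosome 8 and 39 in both lists on the others. At least 40 AA-labelled peaks were found in 42 windows of chromosome 8 (32.6%), against 7.91% of the windows of chromosomes 2 to 7 and 11.1% of all windows of the autosomes and X. For at least 40 no-AA-labelled peaks the count was 64 windows (49.6%), against 9.83% and 14.8%. At most 10 peaks were found in 17.8% and 13.2% of the windows of chromosome 8, against 23.3% and 18.4%. The fullest single windows, with 61 and 72 peaks, stayed below the 71 and 92 reached on chromosomes 2 to 7.

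**Figure D2:**
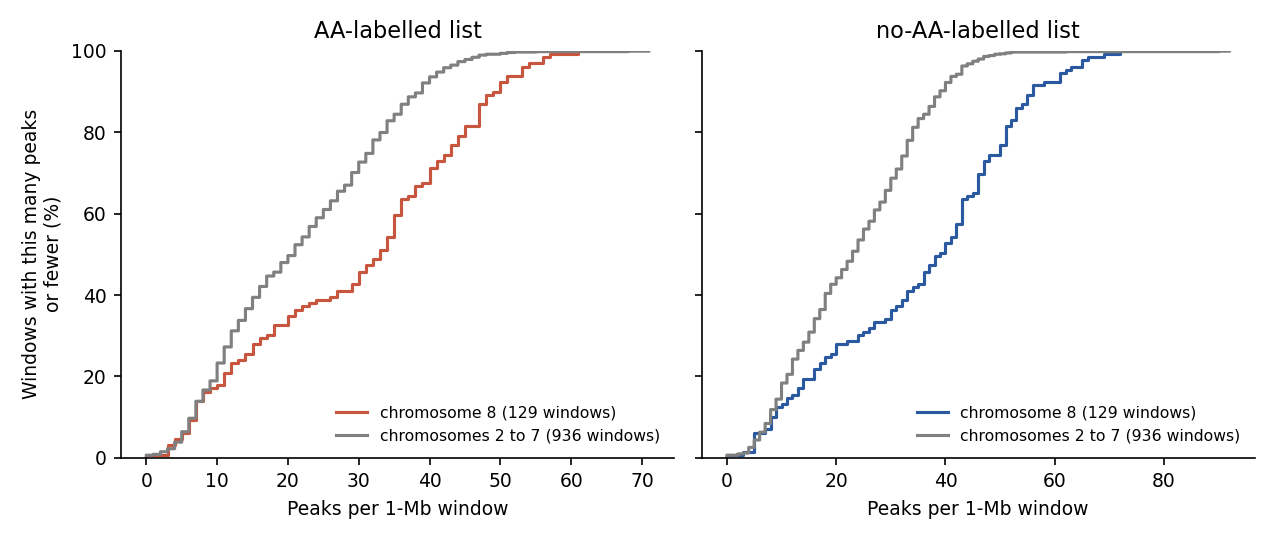
Cumulative share of 1-Mb windows (vertical axis, %) by number of peaks per window (horizontal axis) for chromosome 8 (coloured, 129 windows) and chromosomes 2 to 7 (grey, 936 windows). The curves lie close at the left and part to the right, with medians of 33 against 21 peaks in the left panel and 39 against 23 in the right panel.

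By the sum of both lists the fullest 1-Mb window was 67 to 68 Mb, with 57 AA-labelled and 69 no-AA-labelled peaks. It was followed by 48 to 49 Mb with 50 and 72 peaks, 87 to 88 Mb with 48 and 65, 23 to 24 Mb with 61 and 51, and 35 to 36 Mb with 56 and 56. With 1 bound for all chromosomes, which a denser chromosome passes more often, there were 8 runs of at least 3 windows with over 80 summed peaks each, and they held 33 of the 129 windows (25.6%), against 7 of 936 (0.748%) in 2 runs on chromosomes 2 to 7. The longest run reached from 108 to 115 Mb with 333 AA-labelled and 350 no-AA-labelled peaks, followed by 125 to 130 Mb with 226 and 247. The other runs were 11 to 15, 23 to 27, 35 to 38, 46 to 50, 72 to 75 and 80 to 83 Mb. Neighbouring 1-Mb windows had a Pearson correlation of 0.51 in summed peaks over 128 neighbour pairs, against 0.55 over 930 on chromosomes 2 to 7.

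Poor stretches were fewer. Runs of at least 3 windows with at most 20 summed peaks numbered 2 on chromosome 8, at 20 to 23 Mb and 100 to 103 Mb, and held 4.65% of its windows, against 6.20% in 15 runs on chromosomes 2 to 7. The emptiest windows with any peak were 56 to 57 Mb with 3 and 3 peaks, 20 to 21 Mb and 84 to 85 Mb with 3 and 5 each, and 6 to 7 Mb and 105 to 106 Mb with 4 and 5 each. The window at 21 to 22 Mb was empty in both lists. Over 1 Mb without any peak occurred at 2 places, from 20038830 to 22045242 (2.01 Mb) and from 56209187 to 57943753 (1.73 Mb). Both began directly after tag-rich peaks: the last peaks before the first gap held 102 tags in the AA-labelled and 524 in the no-AA-labelled list, and those before the second 712 and 1240. The first peaks beyond the gaps held 16 and 17 tags, and 16 and 31. Chromosomes 2 to 7 had 1 such gap, on chromosome 7 from 39223327 to 46368496 (7.15 Mb). It did not follow tag-rich peaks, as the last peaks before it held 13 and 14 tags.

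Both lists ranked the 1-Mb windows of chromosome 8 alike, with correlations of 0.923 (Pearson) and 0.906 (Spearman) over 129 windows. The windows of chromosomes 2 to 7 gave 0.906 and 0.916. Windows of both lists share the sequence and the mappable length beneath them. With peak numbers taken as shares of each list's total, the difference in favour of the AA-labelled list was greatest at 113 to 114 Mb with 53 against 41 peaks (ratio 1.29, 0.844 to 1.99), then at 23 to 24 Mb with 61 against 51 and at 26 to 27 Mb with 56 against 48. By the same difference, and not by the ratio, the largest deficit was at 13 to 14 Mb with 35 against 58 peaks (0.603, 0.385 to 0.934), then at 63 to 64 Mb with 40 against 63 (0.635, 0.416 to 0.959) and at 48 to 49 Mb with 50 against 72. These windows were picked as extremes of 129, and each interval given here includes the ratio of all peaks, 0.906.

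With all peaks counted, the lower AA-labelled number was spread along the chromosome. Among 1-Mb windows with at least 10 no-AA-labelled peaks, 82 of 113 (72.6%) had a ratio below 0.906, against 49.4% on chromosomes 2 to 7 and 52.8% over all such windows. Of the 5-Mb windows it was 21 of 27, where 53.3% of all 5-Mb windows lay below. The lowest 5-Mb ratio was 0.50 (0.337 to 0.733) at 50 to 55 Mb. The highest was 1.04 (0.792 to 1.36) at 20 to 25 Mb, then 1.02 (0.830 to 1.24) at 120 to 125 Mb and 0.991 (0.823 to 1.19) at 110 to 115 Mb.

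Peaks of chromosome 8 were longer and held more tags than those of chromosomes 2 to 7 in both lists. The median peak held 33 AA-labelled or 34 no-AA-labelled tags (quartiles 21 and 54, 23 and 52), against 27 and 27. The median length was 1142 bp and 883 bp, against 1030 bp and 772 bp. A length of at least 2 kb was reached by 606 peaks of the AA-labelled list (15.99%) and 325 of the other (7.13%), against 8.07% and 2.15% on chromosomes 2 to 7. At least 100 tags were found in 245 peaks of each list (6.47% and 5.37%), and in 359 and 274 peaks (1.78% and 1.25%) of chromosomes 2 to 7. Without the stretch at 19 to 21 Mb chromosome 8 kept 225 and 213 such peaks. By 5-Mb window they were most numerous at 120 to 125 Mb, with 29 and 33, then at 125 to 130 Mb with 22 and 25, at 15 to 20 Mb with 20 and 29 and at 10 to 15 Mb with 20 and 17.

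By fold enrichment over its local background the typical peak of chromosome 8 was weaker. The median of the fold enrichment given by the authors' caller was 7.19 for AA-labelled peaks (quartiles 5.61 and 9.19) and 6.29 for the others (5.05 and 8.00), against 7.87 and 7.05 on chromosomes 2 to 7. The highest fold enrichment on the chromosome was 21.03 and 19.63, against 35.17 and 45.98. Each fold is the caller's own and relative to the background of its own library. That background was taken over 10000 bp without a control, so tags of the peak and its neighbours can enter it. Midpoints of neighbouring peaks lay a median of 18.5 and 16.3 kb apart, against 25.3 and 23.8 kb on chromosomes 2 to 7. The part of this spacing in the lower folds was not tested. The AA-labelled peak at 21.03-fold lay at 83262829 to 83264042 with 69 tags, and its no-AA-labelled counterpart had 38 tags at 19.07-fold.

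Tags per kb divided by the fold enrichment give the background that the caller's values imply. Its median over the peaks of chromosome 8 was 3.94 tags per kb in the AA-labelled list and 5.99 in the other. That was 1.18 times (1.15 to 1.21) and 1.22 times (1.20 to 1.24) the median of chromosomes 2 to 7, among which the single chromosomes ranged from 0.911 to 1.07 and from 0.909 to 1.05. Among peaks with a fold enrichment of at least 10 the values were 1.02 and 0.997, and among peaks with a p of at most 1e-10 they were 1.20 and 1.23. This quantity contains the fold and the tags by construction, and tags of neighbouring peaks can enter it. Its part in the higher peak number was not tested.

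The higher background was not found in windows of every kind. In 1-Mb windows with 1 to 20 peaks of both lists together, the implied background of chromosome 8 was 0.980 times that of like windows of chromosomes 2 to 7 in the AA-labelled list and 1.03 times in the other. With 21 to 40 peaks it was 0.954 and 0.974 times, with 41 to 60 peaks 0.834 and 0.858 times, and with 61 to 80 peaks 0.882 and 0.943 times. In windows of over 80 peaks it was 1.09 and 1.16 times. Such windows held 57.5% of the AA-labelled and 55.5% of the no-AA-labelled peaks of chromosome 8, in 48 windows, against 12.9% and 12.2% on chromosomes 2 to 7, in 59 windows. In that class the median peak held 41 tags in both lists on chromosome 8 and 35 and 33 tags on the others. All classes are cut by peak number, the trait for which the chromosome was picked. Like windows are thus alike in that trait by construction, and less closely so in the class of over 80, which has no upper bound.

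**Figure D3:**
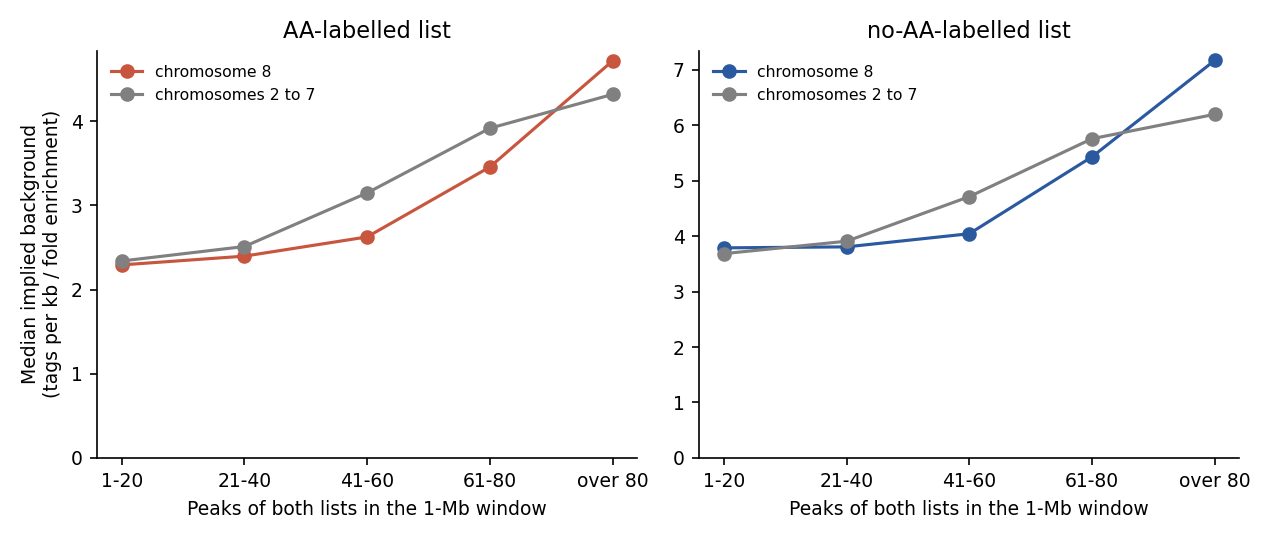
Median implied background of peaks (tags per kb divided by fold enrichment, vertical axis) in 1-Mb windows grouped by the summed number of peaks of both lists (horizontal axis), for chromosome 8 (coloured) and chromosomes 2 to 7 (grey). It rises with peak number in both sets, and the points of chromosome 8 lie close to or below the grey ones except in windows of over 80 peaks (4.72 against 4.32 tags per kb in the AA-labelled and 7.17 against 6.20 in the no-AA-labelled list).

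Of the AA-labelled peaks of chromosome 8, 2064 (54.5%, 52.9% to 56.1%) overlapped a no-AA-labelled peak by at least 1 bp, against 46.0% on chromosomes 2 to 7 and 47.5% in the whole list. Of the no-AA-labelled peaks, 2087 (45.8%, 44.3% to 47.2%) overlapped an AA-labelled one, against 43.1% and 43.6%. When both lists were held to a fold enrichment of at least 10 the shares were 23.5% and 42.1%, so their order turned round. These are shares of unlike totals, since 689 AA-labelled and 385 no-AA-labelled peaks of chromosome 8 passed that cutoff. A peak is also counted there as unshared if its counterpart misses the cutoff. Matched to the whole other list, 80.3% and 77.5% of the chromosome's peaks with a p of at most 1e-10 were shared. On chromosomes 2 to 7 these shares were 75.2% and 79.8%. With all peaks counted, the single chromosomes 2 to 7 ranged from 44.8% to 47.9% and from 42.0% to 45.9%, so the no-AA-labelled share of 45.8% was within their range. More of chromosome 8 was covered by peaks, and the part of that in the overlap was not tested. In windows of 1 to 20 peaks 70.5% and 54.4% were shared, against 62.8% and 53.5% in like windows of chromosomes 2 to 7. In windows of over 80 peaks the shares were 53.2% and 46.2%, against 46.5% and 46.2%. By 5-Mb window the shares were highest at 100 to 105 Mb, the poorest full window, at 78.9% and 64.6%. They were lowest at 120 to 125 Mb for the AA-labelled list, at 42.0%, and at 50 to 55 Mb for the other, at 36.9%.

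Where peaks of both lists overlapped only each other they were compared as pairs, of which chromosome 8 had 2013. Tag density, in tags per kb and per 1000000 kept tags, favoured the AA-labelled library in 1443 pairs (71.7%), against 76.4% on chromosomes 2 to 7 and 75.2% of all pairs. The median density was 2.44 in the AA-labelled and 2.17 in the no-AA-labelled library, and the median log2 ratio was 0.18 (0.16 to 0.19). On chromosomes 2 to 7 this ratio was 0.22 (0.22 to 0.23), so that of chromosome 8 was lower by 0.05 on the log2 scale. Scaling to the tags inside peaks turned the ratio of chromosome 8 to -0.35, and no scaling to -0.45. Neither changes the difference from chromosomes 2 to 7, since each shifts all pairs alike.

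In plain tags per peak, scaled to kept tags, the AA-labelled library was higher in 1592 pairs (79.1%), against 82.5% of all pairs, with a median log2 ratio of 0.44 (0.41 to 0.48). A density over 2-fold higher in the AA-labelled library was seen in 21 pairs (1.04%), near the 1.47% of all pairs. None was over 2-fold lower, where 0.0223% of all pairs were. In tags per peak 364 pairs (18.1%) passed a 2-fold higher value and 10 (0.497%) a 2-fold lower one, beside 20.5% and 0.408% of all pairs. By fold enrichment the ratio of chromosome 8 was 0.21 (0.19 to 0.23) and differed from that of chromosomes 2 to 7 by 0.0042, so the lower density ratio was not seen in that measure, in which each library has its own background.

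Peaks of pairs were mostly longer in the AA-labelled list. Their median length was 1227 bp against 1009 bp, with a median log2 length ratio of 0.22 (0.20 to 0.24), while the libraries' estimated fragment lengths stood in a ratio of 1.39. On chromosomes 2 to 7 the lengths were 1096 bp and 873 bp and the log2 ratio was 0.28 (0.27 to 0.29). The summits of a pair lay a median of 119 bp apart (quartiles 46 and 323), against 112 bp (46 and 277).

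By position, the median log2 density ratio was above 0 in all 27 windows of 5 Mb and below the 0.22 of chromosomes 2 to 7 in 22 of them, where 51.1% of all 5-Mb windows lay below. It was lowest at 100 to 105 Mb, at 0.0028 over 27 pairs, then at 15 to 20 Mb, at 0.09 over 75 pairs, and at 35 to 40 Mb, at 0.10 over 79 pairs. It was highest at 30 to 35 Mb, at 0.31 over 48 pairs, and in the first window, at 0.27 over 33 pairs. The median log2 length ratio was above 0 in all 27 windows, between 0.13 at 115 to 120 Mb and 0.39 in the first window, and below that of chromosomes 2 to 7 in 21, against 55.8% of all windows.

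Tags and lengths of pairs also varied by window. The longest pairs were at 120 to 125 Mb, with medians of 1671 bp and 1516 bp and of 56 and 70 tags. At 10 to 15 Mb the medians were 1629 bp and 1264 bp with 50 and 56 tags, and at 125 to 130 Mb 1434.5 bp and 1332 bp with 48.5 and 57.5 tags. Among full windows the AA-labelled peaks of pairs were shortest at 100 to 105 Mb, with a median of 923 bp, and the no-AA-labelled ones at 40 to 45 Mb, with 754 bp. The no-AA-labelled library, the deeper one, had at least as many tags per pair in every window.

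**Figure D4:**
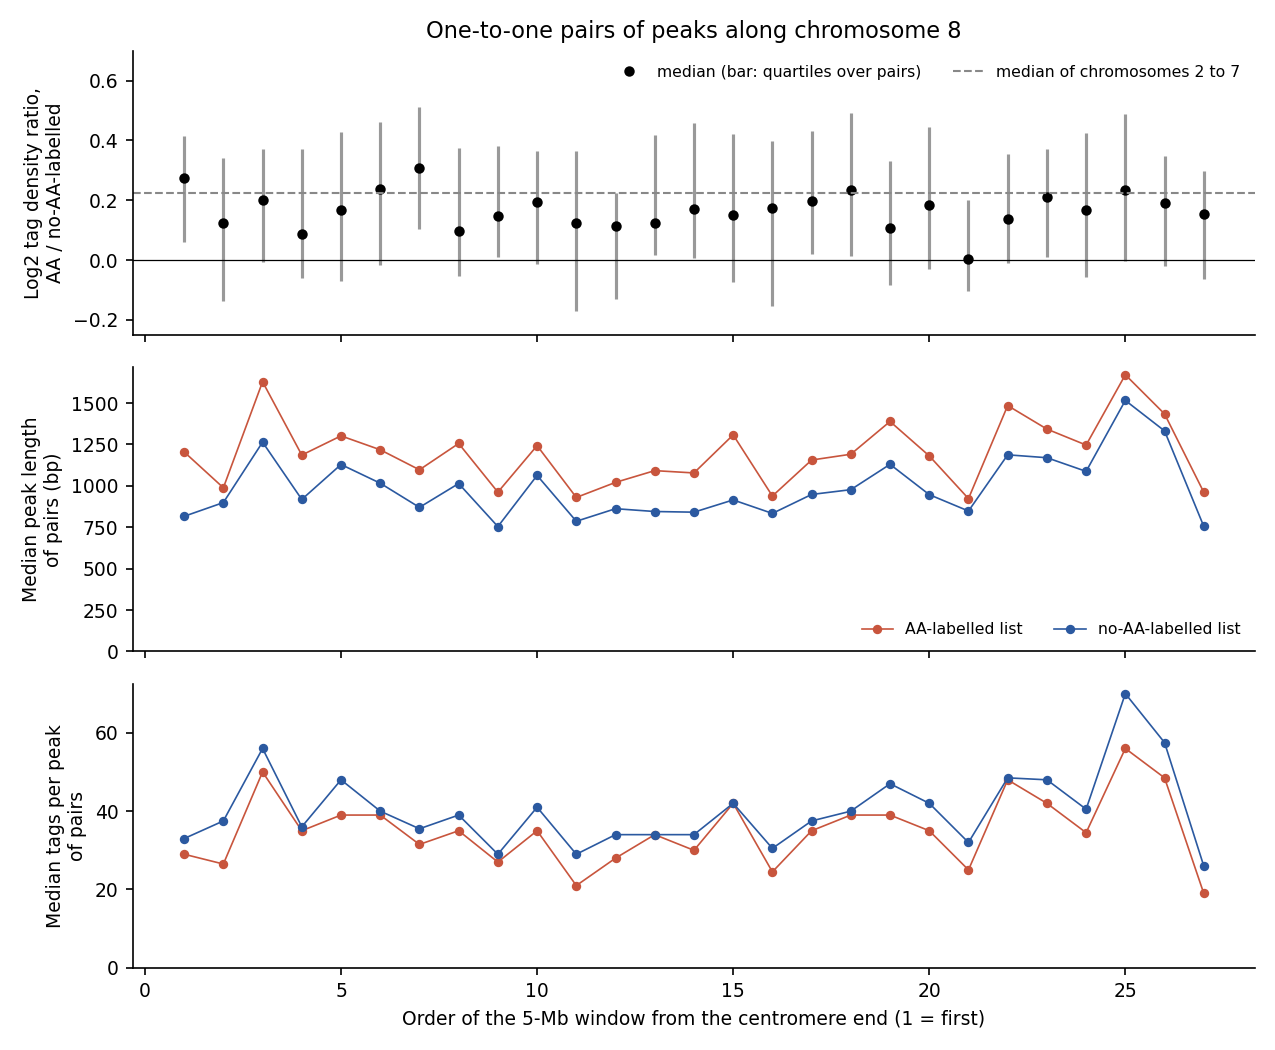
One-to-one pairs of peaks in 5-Mb windows of chromosome 8, in order from the centromere end: median log2 ratio of tag density with quartiles (top), median peak length in bp (middle) and median tags per peak (bottom). The top medians lie between 0.0028 and 0.31, mostly under the dashed line at 0.22 for chromosomes 2 to 7, and lengths and tags peak in window 25 (1671 and 1516 bp, 56 and 70 tags).

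When all pairs of the genome were put into 5 classes by strength (the mean of both peaks' −log10 p), chromosome 8 had a lower median ratio than chromosomes 2 to 7 in each class. The medians were 0.12 against 0.15 in the weakest class, then 0.14 against 0.17, 0.15 against 0.20 and 0.17 against 0.25, and 0.33 against 0.43 in the strongest. The classes held 372 to 442 pairs of chromosome 8, and its pairs had more tags in every class, for instance 53 and 55 against 49 and 47 in the strongest.

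The highest density ratio, where 1 library or both had at least 30 tags, was at 111235959 to 111236787. That pair held 41 tags in the AA-labelled and 19 in the no-AA-labelled library, at 1.45 (0.63 to 2.31) on the log2 scale. The next was at 70795654 to 70796545, at 1.42 (0.83 to 2.00), where 51 and 54 tags lay in 892 bp and 1631 bp, so that in tags per peak the ratio was 0.55 (-0.04 to 1.13). The pair at 82145951 to 82147907 had 123 and 76 tags in nearly equal lengths of 1957 bp and 1961 bp, at 1.33 (0.90 to 1.76). Those at 91768688 to 91769968 and 131668403 to 131669524 followed at 1.30 and 1.23. The lowest ratio was at 129228221 to 129229177, with 16 against 43 tags and -0.94 (-1.87 to -0.08), and the pair at 38168173 to 38168890 had 13 against 57 tags and -0.83 (-1.83 to 0.05). The other 3 of the 5 lowest pairs lay in the stretch at 19 to 21 Mb. All were picked as extremes of 2013 pairs, which the intervals do not allow for.

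The longest pair outside that stretch was at 91551192 to 91558241, with 7050 bp and 389 tags in the AA-labelled and 4488 bp and 299 tags in the no-AA-labelled list. It was followed by 90303767 to 90310458, with 356 tags in 6692 bp and 286 tags in 3949 bp. Their folds were low, at 3.20 and 3.40 for the first and 3.98 and 3.08 for the second. The pair with most tags was at 56203929 to 56209186, with 712 tags in the AA-labelled and 1240 in the no-AA-labelled library. Together with the pair next to it, at 56200875 to 56203712 with 354 and 593 tags, it made up 2 of the 3 peaks of its window in each list, directly before the second gap. Both were lower in the AA-labelled library, at -0.22 (-0.36 to -0.09) and -0.12 (-0.31 to 0.08).

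Peaks without a counterpart were 1725 in the AA-labelled list and 2474 in the other. They lay a median of 7.79 kb and 9.34 kb from the nearest peak of the other list, against 11.1 kb and 11.6 kb on chromosomes 2 to 7, and 2.20% and 5.46% were over 50 kb away, against 6.17% and 8.93%. Such distances are shorter by construction where peaks are denser. Within each list, neighbouring peaks were also closer, at medians of 18.5 and 16.3 kb against 25.3 and 23.8 kb. The median tags of unshared peaks were 30 and 29, against 37 and 41 in shared peaks. The unshared AA-labelled peak of highest fold was at 69976204 to 69977275, with 33 tags (22.7 to 46.3) at 19.41-fold, 27.0 kb from the nearest no-AA-labelled peak. The others were at 130540692 (18.13-fold), 65526076 (17.65-fold), 68066100 (17.64-fold) and 40040239 (16.83-fold), the last 130.4 kb from any no-AA-labelled peak. The no-AA-labelled peaks were led by 66364015 to 66364665, with 33 tags at 16.97-fold. They continued at 38850531 (16.01-fold), 72529120 (16.01-fold), 45606296 (15.15-fold) and 30397317 (14.23-fold). For such a site the lists do not give the tags of the other library.

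In the stretch from 19 to 21 Mb lay 36 peaks of the AA-labelled and 55 of the no-AA-labelled list, or 0.95% and 1.21% of the peaks of chromosome 8. These few peaks held 5489 and 15678 tags, which was 3.25% (3.17% to 3.34%) and 7.53% (7.42% to 7.65%) of all tags in peaks of the chromosome. Among peaks with a p of at most 1e-10 these shares were 6.79% and 12.7%, while among peaks of 10-fold enrichment or more they were 1.46% and 2.79%. The window at 19 to 20 Mb had more tags in peaks than any other of the 2588 1-Mb windows of the autosomes and X in both lists, with 4752 and 12961 tags. The fullest window of chromosomes 2 to 7 had 3330 and 4603, and the median window of chromosome 8 had 1088 and 1436. The window before it, at 18 to 19 Mb, had 1441 and 1714 tags in 38 and 40 peaks.

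The tags lay in 1 block. From 19 Mb to 19683493 there were 16 AA-labelled and 20 no-AA-labelled peaks of ordinary size, with 14 to 55 and 13 to 56 tags. From 19683494 to 20038829, over 355 kb, all 20 AA-labelled peaks had at least 100 tags, as had 32 of the 35 no-AA-labelled peaks. The bounds of this block were set after its values were seen, as those of the first and last such peak. Then came the gap of 2.01 Mb. Peaks covered 18.8% of the block in the AA-labelled and 30.9% in the no-AA-labelled list.

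In the AA-labelled list the block's peaks had a median of 206.5 tags and ranged from 102 to 502. The peak with 502 tags was at 19859464 to 19864281, that with 494 at 19988848 to 19991623 and that with 419 at 20010274 to 20015808. For the no-AA-labelled peaks the median was 349 tags, with a range of 55 to 1849. The peaks with most tags adjoined each other, at 19970009 to 19978287 with 1849 tags in 8279 bp and at 19978313 to 19984129 with 1447 tags in 5817 bp, and neither overlapped an AA-labelled peak. The next were at 20020366 to 20026678 with 735 tags and at 20010404 to 20015859 with 726. Scaled to kept tags, the block's peaks held 426.4 tags per 1000000 in the AA-labelled and 820.1 in the no-AA-labelled library, a ratio of 0.520. These sums rest on regions called separately, which covered 66.9 kb in 20 peaks and 109.7 kb in 35 peaks.

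**Figure D5:**
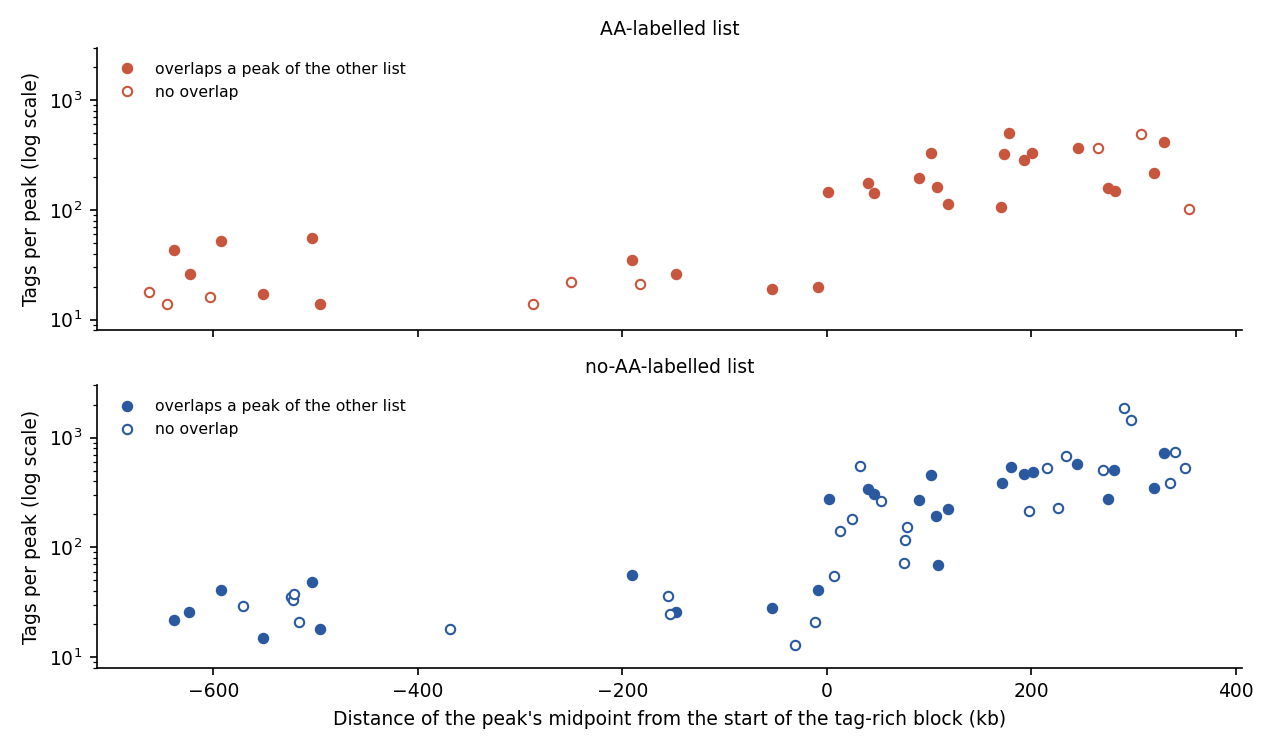
Tags per peak (vertical axis, log scale) against the distance of the peak's midpoint from the start of the tag-rich block in kb (horizontal axis), for peaks at 19 to 21 Mb in the AA-labelled list (top) and the no-AA-labelled list (bottom). Filled points overlap a peak of the other list. Left of 0 all peaks have 56 tags or fewer, and right of 0 they reach 502 tags in the top and 1849 in the bottom panel.

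The folds of these peaks were ordinary in spite of their tags. The median fold enrichment in the block was 6.95 in the AA-labelled list, with a range of 4.66 to 12.25. In the other list it was 5.68, with a range of 3.51 to 13.64, and the peak with 1849 tags stood at 3.51-fold. The implied background was 10.4 and 22.2 tags per kb there, or 2.64 and 3.70 times the median of chromosome 8. With no control, the background was taken over 10000 bp of the same library. Tags of these peaks can enter it and lower their fold, so neither value is independent of the tags. Mean density inside peaks was 6.38 and 7.48 tags per kb and 1000000 kept tags, which was 2.38 and 3.35 times that of all other peaks of the chromosome. Over 0.1 tags per bp were found in 4 of the 20 AA-labelled and 29 of the 35 no-AA-labelled peaks, where 27 and 83 peaks of all autosomes and X passed this density. No input library was used here, and whether these tags come from 5hmC was not tested. This bound is not scaled to depth, and it takes out more of the deeper list by construction. Without peaks past it the stretch kept 2.33% of the tags of the chromosome in the AA-labelled list and 1.12% in the other, values that cannot be compared between the lists.

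Of the AA-labelled peaks in the block 17 of 20 (85.0%, 62.1% to 96.8%) had a counterpart, as had 17 of the 35 no-AA-labelled ones (48.6%, 31.4% to 66.0%). The shared no-AA-labelled peaks held 42.8% of that list's tags in the block. The block had 14 pairs, and 10 of them had a lower density in the AA-labelled library, against 560 of the other 1999 pairs of the chromosome. The median log2 ratio of the 14 pairs was -0.16, with a range of -0.87 to 0.28, against 0.18 for the other pairs. The whole interval lay below 0 in 7 of the 14, against 3 of the 1999, which have fewer tags and so wider intervals. In tags per peak 10 of 14 were also lower, at a median of -0.12. In fold enrichment, where each library has its own background, 4 of 14 were lower. The stretch was picked for its many tags, and scaled to kept tags the no-AA-labelled library held more of them. The ratios of its pairs are therefore not independent of that choice, and none of these counts is a test.

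The lowest pair of the block was at 19722980 to 19724997, with 176 tags in 2018 bp (AA-labelled) and 338 tags in 1373 bp (no-AA-labelled), at -0.87 (-1.14 to -0.60). Then came 19771510 to 19776004 at -0.86 (-1.13 to -0.59) and 19800455 to 19803080 at -0.81 (-1.15 to -0.47). The pair at 19771510 had 197 and 270 tags in 4495 bp and 2201 bp, and in tags per peak it stood at 0.17 (-0.10 to 0.44). At 19963690 to 19965961, with 149 and 512 tags, both measures were low, at -0.50 (-0.77 to -0.23) and -1.15 (-1.43 to -0.89). The pair at 19783517 to 19787268, with 330 and 455 tags, was the highest, at 0.28 (0.07 to 0.49). The summits in the block lay a median of 65.5 bp apart, against 119 bp over all pairs of the chromosome, and they were farthest apart, by 1186 bp, in the pair at 19875151.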

How the data were processed

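Reads of 2 libraries were aligned by the authors with BWA 0.5.9-r16 to mm9 and searched for peaks with MACS 1.4.2, which the submitters' processing notes name. Per the file headers, each list was called without a control at a p cutoff of 1e-05, with the regional background taken over 10000 bp and 1 tag of 101 bp kept per position. How reads that map to several places were treated is not given in the sources used here. The deposited tag counts are whole numbers, not scaled to depth. The deposited −log10 p-values are written times 10, and the deposited fold enrichment is a ratio to each library's own local background.

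The chromosome, the stretch at 19 to 21 Mb, the named regions and all settings were chosen with earlier results of these data known. Named regions were every 5-Mb window, the extreme 1-Mb windows, the pairs of most tags, greatest length and extreme ratio, the unshared peaks of highest fold and gaps over 1 Mb. Runs of windows, the classes by summed peaks and by strength, and the bounds of the tag-rich block were added after seeing the data.

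Peaks of both lists were matched by an overlap of at least 1 bp. Windows took peaks by their midpoints, and the chromosome's length was taken to the end of its last peak. Tags of pairs were divided by length and kept tags. Intervals are exact Poisson, Clopper-Pearson, conditional for ratios of counts, and order statistics for medians. Since tags carry no molecular identifiers, intervals cover counting error only. Alternatives were stricter cutoffs, other overlaps, other scalings and measures, all other autosomes as comparison, other windows and the exchange of the lists. The matching code was tested on simulated lists. Python 3.11.15, NumPy 2.4.6, pandas 2.3.3 and SciPy 1.17.1 were used.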

Additional observations from a re-analysis of the deposited data

How the results depend on the processing

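Of 70 recomputed values, 30 stayed within the interval of the value reported, 33 moved past it and 7 changed sign. The removal of peaks over 0.1 tags per bp was chosen after seeing the data. With a p of at most 1e-10, chromosome 8 against chromosomes 2 to 7 had 1.46 (AA-labelled) and 1.77 (no-AA-labelled) times the peak density, a log2 list ratio of -0.28, 46.0% and 44.0% shared peaks, a density ratio of pairs of 0.28, a difference of that ratio from chromosomes 2 to 7 of -0.081, a length ratio of 0.19, and 6.79% and 12.7% of its tags at 19 to 21 Mb. With a fold enrichment of at least 10 these were 1.14 and 1.22 times, 23.5% and 42.1% shared, 0.14, -0.081, 0.25, and 1.46% and 2.79% of tags, with an implied background of 1.02 and 0.997 times. Against all other autosomes the peak density was 1.28 and 1.41 times. Reciprocal overlap of 50% gave 47.2% and 39.2% shared peaks and a length ratio of 0.17. Tags per peak gave 0.44 for the ratio of pairs and -0.10 for its difference. Fold enrichment gave 0.21, and its difference turned to 0.0042. Scaling to tags in peaks turned the ratio to -0.35 and no scaling to -0.45, by 1 factor for all pairs. With the lists exchanged, the log2 list ratio became 0.15, the ratio of pairs -0.18, its difference 0.048 and the length ratio -0.22. Window counts of the lists correlated at 0.818 in 250-kb windows and at 0.961 in 5-Mb windows. Without peaks over 0.1 tags per bp, a bound not scaled to depth that takes out 4 of 20 and 29 of 35 peaks of the tag-rich block, the stretch held 2.33% and 1.12% of tags. Stricter cutoffs keep fewer peaks in both lists; otherwise, the cause was not tested. Leaving out the stretch at 19 to 21 Mb moved none of the 10 values recomputed that way past its interval. No paired analysis was possible because a single library stands for each group, nor could 1 be left out. Depth differs 1.55 times between the libraries, and a region missing from a list is one not called.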
